A study of Mus musculus with 20 samples.

Results

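Of the 39 genes listed here for the vacuolar proton pump, the lysosome and autophagy, 36 were measured, out of 18820 genes on the arrays. A gene entered when a probe set of the array carried its symbol and no other, with the brightest on average over the 20 arrays standing for a gene that had several. The members are 15 genes of the pump, 11 of the lysosome and 10 of autophagy and its regulators. Missing are Atp6v0c, which has no probe set in the annotation table used here, Ctsb, whose probe sets also carry the symbol Fdft1, and Becn1, whose probe sets also carry Cntd1. The rule that lists the genes goes by name and uses no measured value, although the list was drawn up with earlier results of these data known.

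The vacuolar ATPase pumps protons into lysosomes and other compartments at the cost of ATP. Its V1 sector, in the cytosol, splits ATP, and its V0 sector, in the membrane, carries the protons. The acid interior lets the lysosomal peptidases and glycosidases work. Autophagy encloses cytoplasm in a double membrane that fuses with lysosomes, a route that depends on conjugation of small ubiquitin-like proteins to lipid. The transcription factors TFEB and TFE3 bind an E-box in the promoters of many of these genes and are held in the cytosol by kinase signalling from the lysosomal surface when nutrients are plentiful. In hypothalamic neurons of the feeding circuit, autophagy is known for its link to nutrient supply.

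The RNA came from 2 mouse hypothalamic neuronal lines. mHypoE-46 (E46 below), a line of embryonic origin, is labelled sensitive to serotonin, and mHypoA-2/12 (A2/12 below), of adult origin, is labelled unresponsive. Each is an immortalised line, so a line stands for 1 cell population. The study followed the appetite peptide NPY in these cells. Cells of every group were grown to near confluence in serum medium, then held in medium without serum, with penicillin and streptomycin, before exposure for 24 h. The 5 groups, each of 4 arrays, were untreated E46, E46 with serotonin labelled 100 µg/ml, E46 with serotonin labelled 1 µg/ml, untreated A2/12, and A2/12 with serotonin labelled 100 µg/ml. The labels of the E46 serotonin arrays contradict each other: the titles used here say 100 where a second label says 1, and 1 where it says 100. For A2/12 both labels say 100. Whether replicate arrays stem from separate cultures is not stated, so the p-values measure the spread between arrays, which may be technical. The place of an array, given by a letter in its name, also runs nearly with the groups.

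Levels are log2 values, so a difference of 1 is a doubling, and a level of 1 gene is not comparable with that of another. Values of the 4 arrays of a group are given in replicate order, group values as mean ± SD over 4 arrays, and changes as log2 difference ± SE with 4 arrays on each side. A change was called at a Benjamini-Hochberg adjusted p below 0.05 in limma, over all 18820 genes, and "rose" and "fell" are used for called changes. The median SE of a change was 0.100 over all genes and 0.0703 over the members, so that the number of arrays limits the precision to about ± 0.209 (95% confidence interval, all genes). All 36 members lay above the level of odorant and pheromone receptor genes in every group. The 95th percentile of 1155 such receptors lay between 4.35 and 4.66, and the lowest group mean of a member was 7.19, of Tfeb in A2/12 with serotonin.

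The arrays were checked against markers of the labelled cell type. Of 10 neuronal marker genes measured, 4 lay above the receptor level in untreated cells of each line (Map2, Syt1, Syp and Stmn2), while Rbfox3, Snap25, Nefl, Nefm, Elavl4 and Dcx did not in any group. In untreated E46 only Map2 (10.43) lay far above that level of 4.38, with Syt1 at 4.77, Syp at 4.39 and Stmn2 at 5.09. In untreated A2/12 Map2 (9.62) and Stmn2 (9.14) lay far above 4.36, with Syt1 at 5.48 and Syp at 4.46. The summed level of the list, which adds probes of unlike brightness and is compared only between groups, was 10.52 to 10.66 on untreated and 8.91 to 9.38 on E46 arrays at serotonin labelled 100, and 10.51 to 10.57 and 8.81 to 8.93 in A2/12. Map2 fell by 1.79 ± 0.10 in E46 and 1.92 ± 0.10 in A2/12. Of 8 astrocyte markers, 6 lay above the receptor level in untreated E46 and 4 in untreated A2/12, Gfap and Aqp4 in no group, and the sum was 11.17 to 11.28 against 10.97 to 11.05 in E46 and 9.77 to 10.12 against 9.33 to 9.59 in A2/12. The E46 sum joins opposite changes. There 5 markers fell, among them Slc1a3 (-1.82 ± 0.13) and Slc1a2 (-1.54 ± 0.11), and 1 rose, Gja1 (0.79 ± 0.08). In A2/12 5 fell and 0 rose. Of 4 oligodendrocyte markers Cnp alone lay above the receptor level, and the sum was 9.14 to 9.26 against 7.43 to 7.98, and 8.69 to 9.14 against 7.19 to 7.56. Of 6 fibroblast markers, 5 lay above it in every group, and their summed level was lower at serotonin labelled 100: 12.64 to 12.80 on untreated and 10.34 to 11.23 on treated E46 arrays, and 13.59 to 13.75 and 10.93 to 11.47 in A2/12. In E46 5 of these markers fell and 0 rose, and in A2/12 4 fell and 0 rose. Pdgfra did not fall in A2/12, at 9.72 untreated and 9.89 treated. Of 8 macrophage markers, 2 (Cd68 and Cx3cr1) lay above the receptor level in every group (5 in untreated A2/12), and the summed level was 8.41 to 8.69 against 8.90 to 9.06 in E46 and 7.90 to 9.54 against 8.69 to 8.86 in A2/12. Cd68 codes for a lysosomal membrane protein and rose by 0.60 ± 0.22 in E46 and 0.79 ± 0.22 in A2/12. In A2/12 its groups overlapped, with control array 4 at 8.55, the other 3 controls at 6.88 to 7.29 and treated arrays at 8.20 to 8.38. A2/12 control array 4 had Csf1r at 6.50 against 3.84 to 4.15 on the other 3 control arrays. It also had Tyrobp at 6.97 (others 3.96 to 4.22), Ptprc at 5.41 (4.14 to 4.53), Itgam at 5.54 (3.54 to 4.08) and Adgre1 at 4.78 (3.53 to 3.68). Cx3cr1 was not raised there (4.43, others 4.35 to 4.96). Csf1r, Ptprc and Tyrobp are the further markers above the receptor level in untreated A2/12, so that count of 5 rests on this array. In bulk RNA a change in cell makeup and a change per cell cannot be told apart, and the share of these marker shifts in the results below was not tested. Leaving out that array and E46 control array 3, which an earlier analysis of these data had set apart, left 15 members higher and 5 lower in E46, and 16 and 7 in A2/12. The upper quartile of all levels was lowest, between 8.09 and 8.16, on 4 arrays (E46 control 1, E46 labelled 1 arrays 1 and 3, A2/12 control 2). Without them the counts were 15 and 6 in E46 and 17 and 8 in A2/12.

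Serotonin labelled 100 changed members of every section of the pathway in both lines, in both directions. In E46, 15 of 36 members rose and 6 fell, where 20.3% of all genes rose and 19.3% fell. In A2/12, 17 rose and 9 fell, against 24.8% and 21.1% of all genes. Since the members are well expressed, the 13489 genes above the receptor level are the nearer background: 53.8% of those were called in E46 and 62.4% in A2/12, against 58.3% and 72.2% of the members. The median change of the members was 0.08 in E46 and 0.11 in A2/12, where that of all genes was 0.00 in both lines. Centring every array on its median raised the median change of all genes to 0.12 in E46 and 0.16 in A2/12, and the members then stood at 18 higher and 3 lower in E46 and 18 and 5 in A2/12. The calls lost in that way were Atp6v0a1, Ctsz and Glb1 in E46, and Atp6v0d1, Atp6ap1, Lamp2 and Map1lc3b in A2/12.

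**Figure D1:**
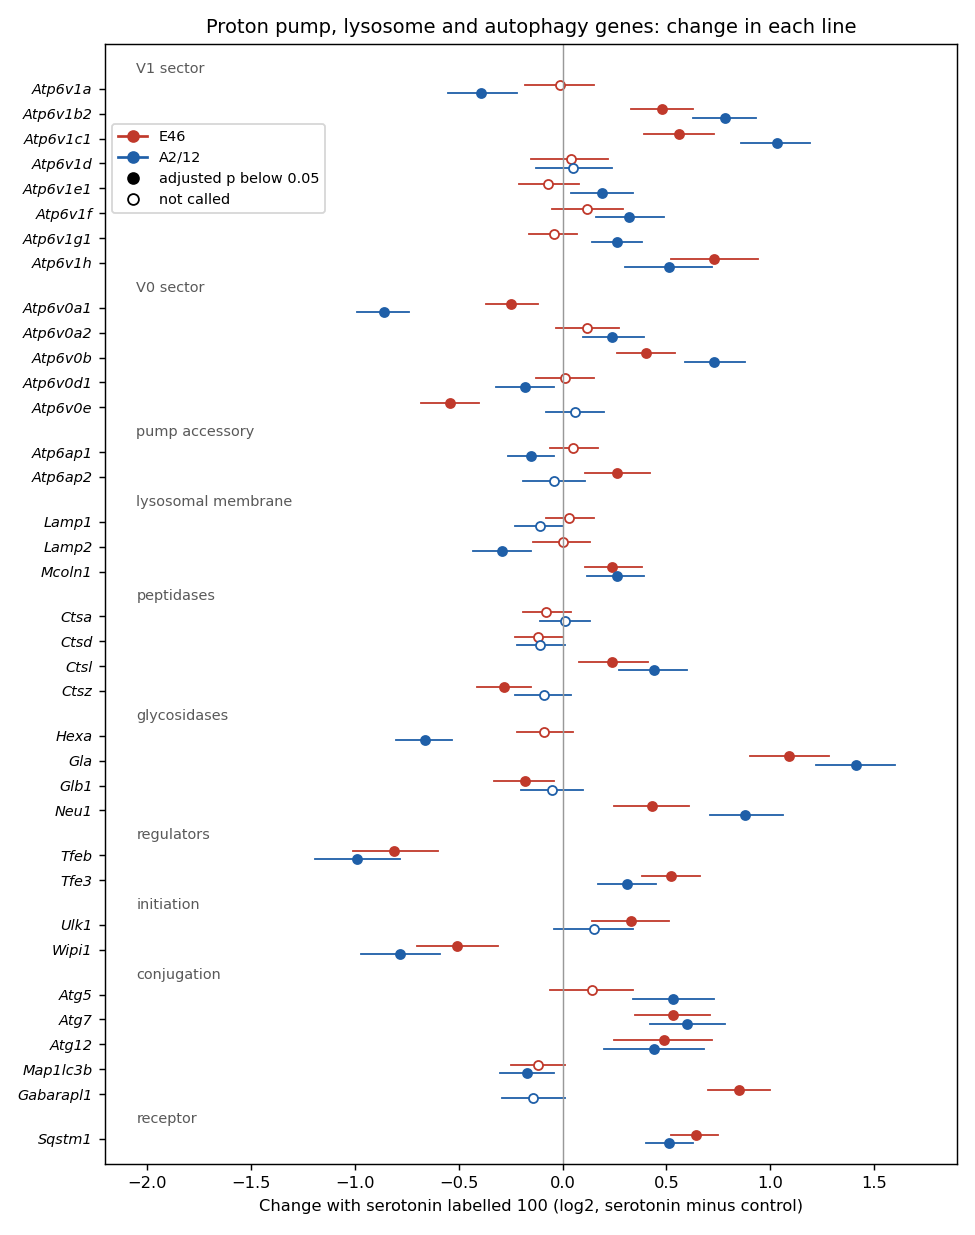
Change of each of the 36 genes with serotonin labelled 100 in E46 (red) and A2/12 (blue), as the log2 difference of treated and untreated means of 4 arrays each, with 95% confidence intervals; filled points had an adjusted p below 0.05. Gla rose by 1.09 and 1.41, Tfeb fell by 0.81 and 0.99, and Gabarapl1 stood at 0.85 in E46 and -0.14 in A2/12.

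In both lines 12 members rose: Atp6v1b2, Atp6v1c1, Atp6v1h, Atp6v0b, Mcoln1, Ctsl, Gla, Neu1, Tfe3, Atg7, Atg12 and Sqstm1. A further 3 fell in both, Atp6v0a1, Tfeb and Wipi1, and 0 members were called in opposite directions. The same counts were not made over all genes, so this agreement is not shown to be particular to the members. Atp6v1d, Lamp1, Ctsa and Ctsd were called in neither line, with changes between -0.12 and 0.05. Across the 36 genes the changes of the lines had a Pearson's r of 0.77 and a Spearman's rho of 0.73, and across all 18820 genes of 0.69 and 0.64. The points are genes and not replicates. The lines share no arrays here, but all values come from 1 normalization.

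The first group is the V1 sector. The 3 members that rose in both lines were Atp6v1c1, Atp6v1b2 and Atp6v1h. Atp6v1c1 codes for subunit C, which joins the stalks of V1 to V0 and leaves when the pump comes apart. Its level was 10.30, 10.43, 10.40 and 10.35 on untreated E46 arrays and 10.82, 10.98, 10.93 and 10.99 with serotonin. In A2/12 it was 9.58, 9.84, 9.93 and 9.93 untreated and 10.97, 10.83, 10.69 and 10.89 with serotonin. Every treated array lay above every untreated array of its line. The change was 0.56 ± 0.08 in E46 (1.47-fold, adjusted p = 7.77e-06) and 1.03 ± 0.08 in A2/12 (2.04-fold, adjusted p = 7.84e-10). A2/12 started lower and ended at about the level of treated E46, and the difference of both changes was -0.47 ± 0.11 (E46 minus A2/12, adjusted p = 0.00438).

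Atp6v1b2, the widely expressed isoform of the nucleotide-binding subunit B, followed the same course. It read 11.40, 11.44, 11.37 and 11.49 in untreated and 11.83, 11.88, 12.00 and 11.92 in treated E46. The A2/12 arrays read 10.59, 10.91, 10.86 and 10.92 untreated and 11.64, 11.61, 11.52 and 11.63 treated. The groups did not overlap in either line, and the change was 0.48 ± 0.07 (adjusted p = 9.36e-06) and 0.78 ± 0.07 (adjusted p = 6.63e-09). The difference of the changes, -0.30 ± 0.10 (adjusted p = 0.0345), was no longer called without any 1 of 9 of the 16 arrays, for example at -0.22 with an adjusted p of 0.0601 without A2/12 control array 1. Atp6v1h codes for subunit H, which regulates the pump's ATP hydrolysis. In E46 it was 8.40, 8.81, 8.86 and 8.89 untreated and 9.33, 9.47, 9.49 and 9.60 treated, with control array 1 well under the others and all treated arrays above all controls. The change was 0.73 ± 0.10 in E46 (adjusted p = 4.27e-06) and 0.51 ± 0.10 in A2/12 (adjusted p = 0.000204), from 8.71 ± 0.12 to 9.22 ± 0.09.

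The other 5 genes of the sector were not called in E46, with changes between -0.07 and 0.12. In A2/12, Atp6v1a, which codes for the catalytic subunit A, fell from 10.65 ± 0.15 to 10.26 ± 0.10 (-0.39 ± 0.08, adjusted p = 0.000292), while Atp6v1b2, for the partner subunit B, rose. The lines differed in this change by 0.38 ± 0.11 (adjusted p = 0.0174; 0.35 and 0.0539 without E46 control array 3 and A2/12 control array 4). Atp6v1g1, a stalk subunit, was 9.83, 9.95, 9.83 and 9.82 in untreated and 10.07, 10.09, 10.18 and 10.13 in treated A2/12, so that the groups did not overlap (0.26 ± 0.06, adjusted p = 0.000634). In E46 it stood at 10.84 ± 0.07 and 10.79 ± 0.05, and the difference of the changes was -0.30 ± 0.08 (adjusted p = 0.00831; -0.34 and 0.0607 after median centring). Atp6v1f rose by 0.32 ± 0.08 in A2/12 (adjusted p = 0.00188) and Atp6v1e1 by 0.19 ± 0.07 (adjusted p = 0.0313). The latter call was lost without any 1 of 6 of the 8 arrays, at adjusted p between 0.0509 and 0.0988. For both genes the difference between the lines was not called (adjusted p = 0.24 and 0.0725).

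In the V0 sector Atp6v0b rose in both lines, Atp6v0a1 fell in both, and Atp6v0e fell in E46. Promoter sequences are given for 6 members called the same way in both lines, chosen because the window around their start holds a motif. They come from RefSeq on build GRCm38.p6, from 250 bases before to 50 after the start of the transcript. Capitals mark matches, on either strand, to CACGTG (the E-box core), TCACGTGA (its longer form, which contains the core), TGATGNAA (an element of ATF4 with C/EBP factors) or TGACNNNGC (the antioxidant response element). Of the 36 members 30 had such a window, among them 11 of the 15 called the same way in both lines. The windows of Neu1, Tfeb, Tfe3, Wipi1 and Sqstm1, all called the same way, held none of these motifs and are not shown. The 30 members have 34 windows, and CACGTG was found in 13 of the 34, against 7.15% of all 32851 promoters. TCACGTGA was found in 7 against 0.974%, TGATGNAA in 2 against 3.97%, and TGACNNNGC in 6 against 12.4%. These counts of windows are also the counts of members. The 7 with TCACGTGA were Atp6v0d1, Atp6v0e, Atp6v1a, Ctsa, Ctsd, Gla and Mcoln1. Of these, Gla and Mcoln1 rose in both lines, Atp6v0e fell in E46, Atp6v0d1 and Atp6v1a fell in A2/12, and Ctsa and Ctsd were called in neither. The members with CACGTG but not the longer form were Atg5, Atg7, Atp6v0b, Ctsl, Glb1 and Lamp1. Among them Atg7, Atp6v0b and Ctsl rose in both lines, Atg5 rose in A2/12, Glb1 fell in E46, and Lamp1 was called in neither. A match is a run of letters, not a site shown to be bound.

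Atp6v0b codes for subunit c'', part of the membrane ring that carries the protons. Its promoter (chr4:117887280-117887579, minus strand) holds the E-box core at 2 places close to the start.
Atp6v0b: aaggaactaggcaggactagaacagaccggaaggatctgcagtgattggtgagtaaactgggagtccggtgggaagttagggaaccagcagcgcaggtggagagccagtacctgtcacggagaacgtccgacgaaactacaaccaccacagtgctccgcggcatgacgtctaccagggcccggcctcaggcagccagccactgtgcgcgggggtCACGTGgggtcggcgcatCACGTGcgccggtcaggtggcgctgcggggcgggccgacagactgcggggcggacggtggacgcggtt
The level was 11.18, 11.25, 11.23 and 11.39 in untreated and 11.62, 11.62, 11.71 and 11.71 in treated E46, and 11.15, 10.99, 11.16 and 10.89 untreated and 11.72, 11.75, 11.78 and 11.86 treated in A2/12. All treated arrays lay above the untreated ones of their line. The change was 0.40 ± 0.07 (1.32-fold, adjusted p = 6.71e-05) in E46 and 0.73 ± 0.07 (1.66-fold, adjusted p = 1.22e-08) in A2/12, with a difference of -0.33 ± 0.10 (adjusted p = 0.0156).

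Atp6v0a1 codes for the isoform of subunit a that is prominent in neurons. Its promoter (chr11:101010148-101010447, plus strand) holds no E-box core and, in this window, a repeated match to TGACNNNGC read on the other strand.
Atp6v0a1: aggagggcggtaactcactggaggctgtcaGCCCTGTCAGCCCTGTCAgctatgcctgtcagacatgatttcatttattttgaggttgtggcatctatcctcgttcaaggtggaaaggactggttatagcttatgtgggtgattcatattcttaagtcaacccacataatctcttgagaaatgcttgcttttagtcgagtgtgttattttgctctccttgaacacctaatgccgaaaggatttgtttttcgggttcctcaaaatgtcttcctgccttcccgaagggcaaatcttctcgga
It was 10.38, 10.36, 10.36 and 10.47 in untreated and 10.18, 10.15, 10.13 and 10.12 in treated E46. In A2/12 it was 10.24, 10.29, 10.35 and 10.26 untreated and 9.37, 9.41, 9.51 and 9.40 treated. Treated arrays lay below the untreated ones in both lines, by 0.25 ± 0.06 in E46 (adjusted p = 0.00177; -0.13 and 0.271 after median centring) and by 0.86 ± 0.06 in A2/12 (adjusted p = 9.96e-11). The lines differed in this by 0.61 ± 0.08 (adjusted p = 1.12e-05). Atp6v0a2, the isoform known from endosomes and the Golgi, stood at 0.12 ± 0.07 in E46 (adjusted p = 0.223) and rose by 0.24 ± 0.07 in A2/12 (adjusted p = 0.00699). A second, dimmer probe set of that gene gave -0.17 and -0.04, called in neither line.

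Atp6v0e codes for the small subunit e. Untreated E46 arrays read 11.26, 11.29, 11.32 and 11.37 and treated ones 10.79, 10.68, 10.83 and 10.76, a fall of 0.54 ± 0.07 (1.46-fold, adjusted p = 8.88e-07) with no overlap. In A2/12 the same gene read 11.29, 11.33, 11.32 and 11.28 untreated and 11.27, 11.37, 11.49 and 11.34 treated, which overlap (0.06 ± 0.07, adjusted p = 0.511). The difference of the changes was -0.61 ± 0.09 (adjusted p = 4.99e-05). Atp6v0d1, which couples V0 to the central stalk, fell by 0.18 ± 0.07 in A2/12 (adjusted p = 0.034), a call lost without any 1 of 5 of the 8 arrays (adjusted p between 0.0615 and 0.114), and stood at 0.01 ± 0.07 in E46.

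Each of the pump's 2 accessory genes was called in 1 line. Atp6ap2, the prorenin receptor, rose in E46 from 10.90, 11.03, 11.13 and 10.98 to 11.28, 11.26, 11.25 and 11.30, with no overlap (0.26 ± 0.07, adjusted p = 0.00535). The A2/12 level was 10.43 ± 0.13 and 10.39 ± 0.10 (-0.04 ± 0.07), and the difference of 0.30 ± 0.10 (adjusted p = 0.0367) was lost without any 1 of 10 of the 16 arrays, at adjusted p between 0.0507 and 0.0851. Atp6ap1, which helps assemble V0, was 0.05 ± 0.05 in E46 and fell by 0.15 ± 0.05 in A2/12 (adjusted p = 0.0287). That fall was 0.01 in the other direction after median centring, and the call was lost without any 1 of 4 of the 8 arrays (adjusted p between 0.0579 and 0.0953).

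Over the whole pump 5 of 15 members rose and 2 fell in E46 (46.7% called, against 53.8% of genes above the receptor level), and 8 rose and 4 fell in A2/12 (80% against 62.4%). Without A2/12 control array 3, or A2/12 serotonin array 1 or 2, the members that fell in A2/12 were 2.

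Among the 3 genes of the lysosomal membrane Mcoln1 rose in both lines. It codes for mucolipin-1, the channel that releases calcium from lysosomes. Its promoter (chr8:3500269-3500568, plus strand) holds the core and the longer E-box just before the start.
Mcoln1: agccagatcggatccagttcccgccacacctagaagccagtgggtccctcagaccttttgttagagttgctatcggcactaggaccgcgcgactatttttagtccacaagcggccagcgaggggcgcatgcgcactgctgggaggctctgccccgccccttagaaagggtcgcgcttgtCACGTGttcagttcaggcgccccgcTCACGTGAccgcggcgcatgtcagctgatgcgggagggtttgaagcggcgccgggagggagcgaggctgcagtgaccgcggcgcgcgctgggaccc
The arrays read 11.91, 11.90, 11.82 and 11.99 untreated and 12.08, 12.08, 12.26 and 12.16 treated in E46, and 11.77, 11.73, 11.83 and 11.78 untreated and 11.93, 12.03, 12.02 and 12.16 treated in A2/12. All treated arrays were above the untreated ones, by 0.24 ± 0.06 (adjusted p = 0.00371) and 0.26 ± 0.06 (adjusted p = 0.00203), and the difference of the changes was -0.01 ± 0.09 (95% confidence interval -0.20 to 0.18). The mRNAs of the structural proteins did not rise. Lamp2 stood at 12.17 ± 0.14 and 12.17 ± 0.04 in E46 (0.00 ± 0.07) and fell in A2/12 from 12.21, 12.34, 12.32 and 12.33 to 12.07, 12.02, 12.01 and 11.93 (-0.29 ± 0.07, adjusted p = 0.000865; -0.13 and 0.216 after median centring). The difference, 0.29 ± 0.09 (adjusted p = 0.0309), was lost without any 1 of 7 of the 16 arrays, for example at 0.22 and 0.0525 without E46 control array 1, which read low. Lamp1 was called in neither line.

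Of 4 peptidase genes Ctsl rose in both lines. It codes for cathepsin L, a cysteine protease. Its promoter (chr13:64370471-64370770, minus strand) holds the E-box core and, nearer to the start, the ATF4 element.
Ctsl: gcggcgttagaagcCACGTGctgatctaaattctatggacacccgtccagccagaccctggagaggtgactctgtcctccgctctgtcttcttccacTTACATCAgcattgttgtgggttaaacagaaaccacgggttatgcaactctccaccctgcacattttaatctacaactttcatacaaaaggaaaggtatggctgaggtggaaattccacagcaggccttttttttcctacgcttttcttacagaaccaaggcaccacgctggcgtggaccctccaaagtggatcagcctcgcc
The level was 10.93, 10.87, 10.88 and 10.83 untreated and 11.15, 11.16, 11.07 and 11.10 treated in E46 (0.24 ± 0.08, adjusted p = 0.0173) and 11.59, 11.75, 11.92 and 11.84 untreated and 12.35, 12.17, 12.07 and 12.27 treated in A2/12 (0.44 ± 0.08, adjusted p = 7.56e-05). The groups did not overlap in either line. Ctsz, a carboxypeptidase, fell in E46 from 10.61, 10.62, 10.53 and 10.71 to 10.38, 10.22, 10.36 and 10.39 (-0.28 ± 0.06, adjusted p = 0.00108; -0.16 and 0.124 after median centring). In A2/12 it stood at 11.47 ± 0.05 and 11.38 ± 0.08 (-0.09 ± 0.06, adjusted p = 0.263), and the difference between the lines was not called (adjusted p = 0.161). Ctsd, the main aspartic protease, and Ctsa, the partner that protects sialidase and galactosidase, stood between -0.12 and 0.01 and were not called.

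The glycosidases held the members' largest rise. Gla codes for alpha-galactosidase A, the enzyme lacking in Fabry disease. Its promoter (chrX:134600956-134601255, minus strand) holds the longer E-box at 2 places, both in the far part of the window.
Gla: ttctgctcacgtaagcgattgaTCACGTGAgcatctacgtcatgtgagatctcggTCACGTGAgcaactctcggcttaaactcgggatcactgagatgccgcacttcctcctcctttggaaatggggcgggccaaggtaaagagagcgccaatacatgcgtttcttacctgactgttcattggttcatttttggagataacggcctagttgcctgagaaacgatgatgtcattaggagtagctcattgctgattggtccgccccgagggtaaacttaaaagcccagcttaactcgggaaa
Untreated E46 arrays read 8.62, 8.78, 8.75 and 8.78 and treated ones 9.66, 9.93, 9.79 and 9.91. Untreated A2/12 arrays read 8.78, 9.12, 9.16 and 9.15 and treated ones 10.57, 10.46, 10.34 and 10.47. Each treated array lay above all untreated arrays of its line by a wide gap. The rise was 1.09 ± 0.09 in E46 (2.13-fold, adjusted p = 4.02e-09) and 1.41 ± 0.09 in A2/12 (2.65-fold, adjusted p = 3.77e-11). The difference of -0.32 ± 0.13 was not called (adjusted p = 0.0871), but was with quantile normalization (-0.34 and 0.0268) and with the 4 low-quartile arrays left out (-0.38 and 0.0485).

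Neu1, the lysosomal sialidase, rose in both lines too. The values were 8.14, 8.33, 8.40 and 8.51 untreated and 8.70, 8.70, 8.88 and 8.83 treated in E46, and 8.28, 8.05, 8.29 and 7.99 untreated and 8.97, 8.97, 9.16 and 9.04 treated in A2/12, without overlap. The changes were 0.43 ± 0.09 (adjusted p = 0.000303) and 0.88 ± 0.09 (adjusted p = 2e-08), with a difference of -0.45 ± 0.12 (adjusted p = 0.00903). Hexa, the alpha subunit of hexosaminidase, which is deficient in Tay-Sachs disease, went another way. It fell in A2/12 from 11.26, 11.32, 11.23 and 11.23 to 10.53, 10.62, 10.64 and 10.61 (-0.66 ± 0.06, 1.58-fold, adjusted p = 1.86e-08). In E46 the arrays read 11.25, 11.17, 11.26 and 11.39 untreated and 11.18, 11.07, 11.24 and 11.21 treated and overlapped (-0.09 ± 0.06, adjusted p = 0.33). The lines differed by 0.58 ± 0.09 (adjusted p = 5.89e-05). Glb1, the lysosomal beta-galactosidase, fell by 0.18 ± 0.07 in E46 (adjusted p = 0.044), which was lost without any 1 of 6 of the 8 arrays (adjusted p between 0.0539 and 0.137), and stood at -0.05 ± 0.07 in A2/12. In all, 4 of 11 lysosomal members rose and 2 fell in each line, 54.5% called, against 53.8% (E46) and 62.4% (A2/12) of genes above the receptor level. The genes that fell were Ctsz and Glb1 in E46 and Lamp2 and Hexa in A2/12. Without E46 control array 2, 3 or 4 or E46 serotonin array 2, 3 or 4, the E46 count that fell was 1, Glb1 being lost.

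**Figure D2:**
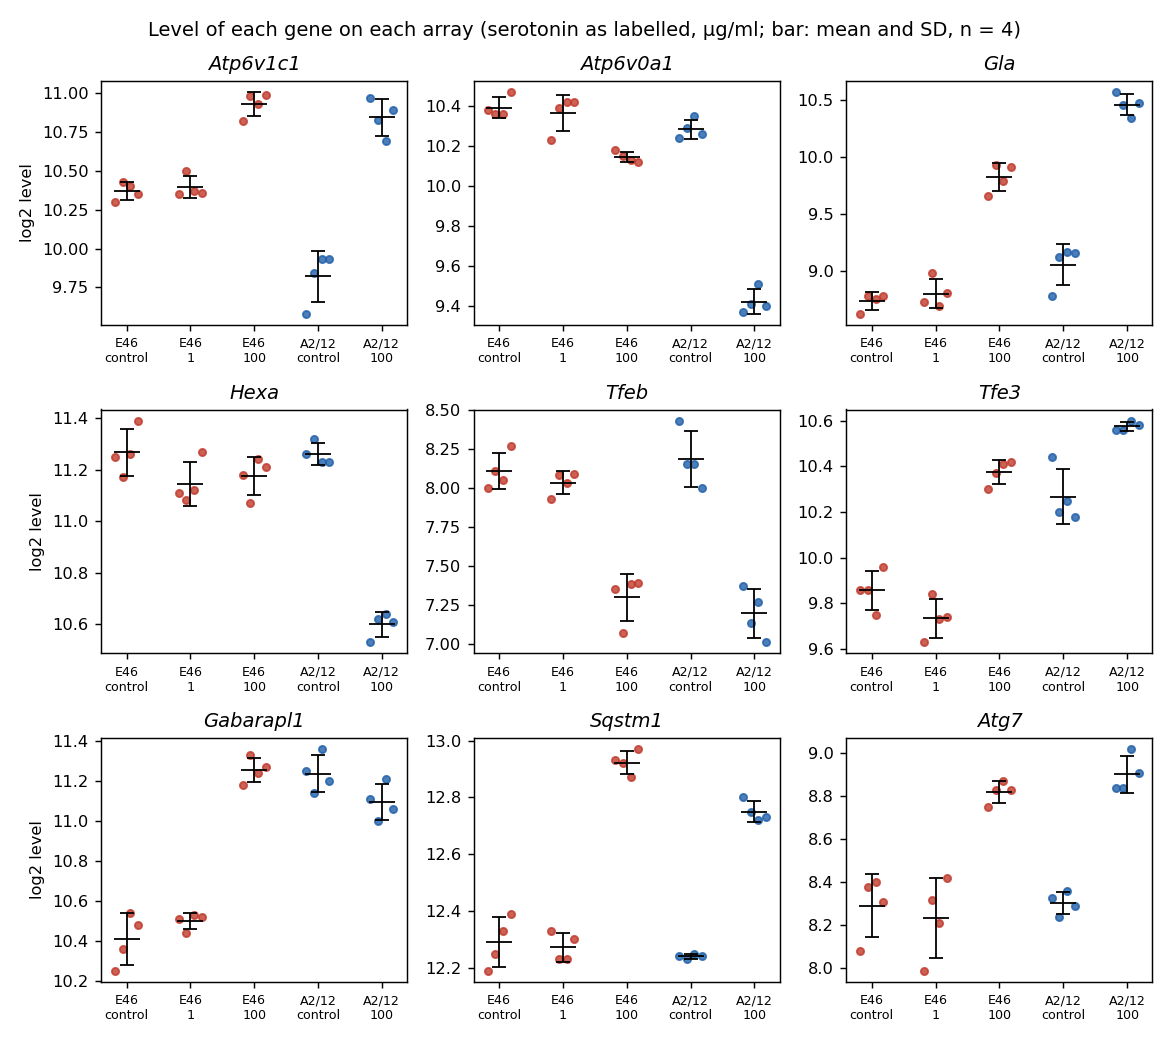
Log2 level of 9 members on each of the 20 arrays, by group (red E46, blue A2/12; 1 and 100 are the labelled µg/ml of serotonin), with the mean and SD of 4 arrays; each panel has its own axis, which does not start at 0. At the labelled 100 Tfeb lies lower and Tfe3 higher than in untreated cells of either line.

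The transcription factors of the pathway changed in opposite directions. Tfeb mRNA was 8.00, 8.11, 8.05 and 8.27 in untreated and 7.35, 7.07, 7.38 and 7.39 in treated E46, and 8.43, 8.15, 8.15 and 8.00 untreated and 7.37, 7.13, 7.27 and 7.01 treated in A2/12. Every treated array lay under every untreated one. It fell by 0.81 ± 0.10 in E46 (1.75-fold, adjusted p = 8.44e-07) and by 0.99 ± 0.10 in A2/12 (1.98-fold, adjusted p = 2.95e-08), the largest fall among the members in each line. Tfe3, its relative, was 9.86, 9.86, 9.75 and 9.96 untreated and 10.30, 10.37, 10.41 and 10.42 treated in E46, and 10.44, 10.20, 10.25 and 10.18 untreated and 10.56, 10.56, 10.60 and 10.58 treated in A2/12. It rose by 0.52 ± 0.07 (adjusted p = 2.25e-06) and 0.31 ± 0.07 (adjusted p = 0.00059), without overlap. For neither gene was the difference between the lines called (adjusted p = 0.425 for Tfeb and 0.144 for Tfe3). These factors are controlled chiefly by where in the cell they lie, which arrays do not measure.

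Of the genes that start autophagy, Wipi1, which binds the lipid of the forming membrane, fell in both lines. It was 8.74, 8.69, 8.83 and 8.88 untreated and 8.20, 8.29, 8.36 and 8.27 treated in E46 (-0.51 ± 0.09, adjusted p = 0.000131), and 9.09, 8.91, 9.11 and 8.92 untreated and 8.31, 8.03, 8.38 and 8.19 treated in A2/12 (-0.78 ± 0.09, adjusted p = 3.82e-07). No arrays overlapped. Ulk1, the kinase that receives the nutrient signal, rose in E46 from 8.34, 8.50, 8.28 and 8.57 to 8.74, 8.79, 8.82 and 8.66 (0.33 ± 0.09, adjusted p = 0.00567). In A2/12 it stood at 9.25, 8.76, 8.96 and 8.98 untreated and 9.17, 9.14, 9.15 and 9.09 treated, with 1 control array above all treated ones (0.15 ± 0.09, adjusted p = 0.205; 0.31 and 0.00456 after median centring). The difference between the lines was 0.18 ± 0.13 (adjusted p = 0.386).

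Of 5 conjugation genes, 3 rose in E46 (Atg7, Atg12 and Gabarapl1) and 3 rose and 1 fell in A2/12 (Atg5, Atg7 and Atg12, and Map1lc3b). Atg7 codes for the enzyme that activates both ubiquitin-like systems. Its promoter (chr6:114670846-114671145, plus strand) holds the E-box core.
Atg7: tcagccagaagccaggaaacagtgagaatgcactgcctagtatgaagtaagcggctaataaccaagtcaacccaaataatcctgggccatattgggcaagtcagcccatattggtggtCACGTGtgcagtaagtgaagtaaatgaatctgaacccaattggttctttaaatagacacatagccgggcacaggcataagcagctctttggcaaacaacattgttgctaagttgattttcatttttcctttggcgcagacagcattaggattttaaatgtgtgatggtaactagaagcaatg
Atg7 was 8.08, 8.38, 8.40 and 8.31 untreated and 8.75, 8.83, 8.87 and 8.83 treated in E46 and 8.33, 8.24, 8.36 and 8.29 untreated and 8.84, 8.84, 9.02 and 8.91 treated in A2/12. Treated arrays lay above untreated ones in both lines, by 0.53 ± 0.09 (adjusted p = 3.6e-05) and 0.60 ± 0.09 (adjusted p = 4.68e-06). Atg12, which Atg7 activates, rose from 8.09 ± 0.07 to 8.57 ± 0.12 in E46 (adjusted p = 0.00143) and from 8.15 ± 0.17 to 8.59 ± 0.27 in A2/12 (adjusted p = 0.00263), where the lowest treated and the highest untreated array met. Atg5, its conjugation partner, rose in A2/12 from 7.95, 7.99, 7.97 and 7.88 to 8.46, 8.39, 8.57 and 8.52 (0.53 ± 0.10, adjusted p = 7.24e-05). In E46 it stood at 8.18 ± 0.17 and 8.32 ± 0.08 (0.14 ± 0.10, adjusted p = 0.294). The difference of -0.40 ± 0.14 (adjusted p = 0.0401) was lost without any 1 of 11 of the 16 arrays (adjusted p between 0.054 and 0.096).

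The lines parted most clearly at Gabarapl1, one of the small proteins that are joined to the membrane lipid. In E46 it rose from 10.25, 10.36, 10.54 and 10.48 to 11.18, 11.33, 11.24 and 11.27 (0.85 ± 0.07, 1.8-fold, adjusted p = 4.79e-09), with all treated arrays above all controls. In A2/12 it was 11.25, 11.14, 11.36 and 11.20 untreated and 11.11, 11.00, 11.21 and 11.06 treated, which overlap (-0.14 ± 0.07, adjusted p = 0.118). The difference of 0.99 ± 0.10 (adjusted p = 2.59e-07) had the smallest p among the members. Untreated A2/12 cells already stood at the level that treated E46 cells reached. Map1lc3b, the related protein LC3B, stood at -0.12 ± 0.06 in E46 (adjusted p = 0.157) and fell by 0.17 ± 0.06 in A2/12 (adjusted p = 0.0318), a call lost without any 1 of 5 of the 8 arrays (adjusted p between 0.0665 and 0.124) and with the gene's second probe set (-0.16, adjusted p = 0.0641).

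Sqstm1 codes for p62, the receptor that brings ubiquitin-marked cargo to the autophagic membrane. It was 12.19, 12.25, 12.33 and 12.39 in untreated and 12.93, 12.92, 12.87 and 12.97 in treated E46, and 12.24, 12.23, 12.25 and 12.24 untreated and 12.80, 12.75, 12.72 and 12.73 treated in A2/12. The arrays of a group lay close together and the groups far apart. The rise was 0.64 ± 0.06 (1.55-fold, adjusted p = 9.73e-09) in E46 and 0.51 ± 0.06 (1.43-fold, adjusted p = 1.27e-07) in A2/12, and the difference was not called (adjusted p = 0.334). Over autophagy and its regulators 6 of 10 members rose and 2 fell in E46, and 5 rose and 3 fell in A2/12, 80% called in each line against the same 53.8% and 62.4%.

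The responses of the lines were compared directly by the difference of their changes. It was called for 13 of 36 members, 6 higher and 7 lower in E46 than in A2/12, where 11.1% and 10.9% of all genes were called. These are 16.7% and 19.4% of the members, against 15.2% and 14.8% of genes above the receptor level. Of the 13, 8 belong to the pump. Rises of Atp6v1c1, Atp6v1b2, Atp6v0b and Neu1 were larger in the line labelled unresponsive, and so was the fall of Atp6v0a1. The Atp6v1b2 difference was lost without any 1 of 9 of the 16 arrays. Should the second label be right, these E46 arrays had 1 µg/ml and the A2/12 arrays 100, and the lines are compared at unlike doses. Without E46 control array 3 and A2/12 control array 4, 3 were called higher and 6 lower.

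**Figure D3:**
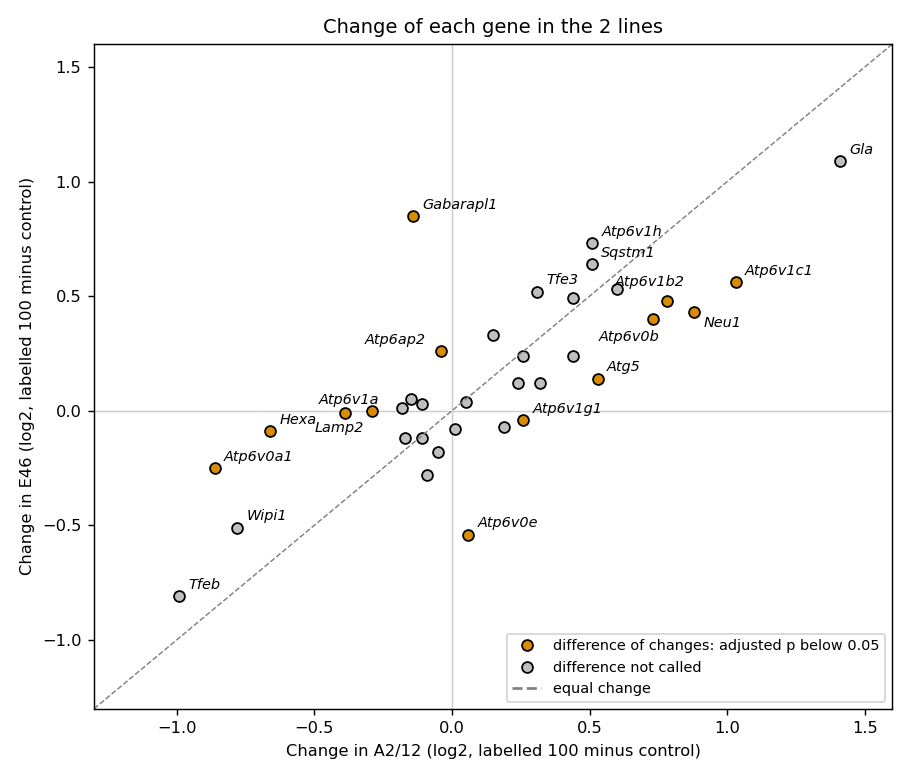
Change with serotonin labelled 100 in A2/12 (horizontal axis) and in E46 (vertical axis), log2, 1 point per gene for the 36 members; orange points are the 13 whose change differed between the lines at an adjusted p below 0.05, and the dashed line marks equal change. Gabarapl1 lies far above that line and Atp6v0e far below it.

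At serotonin labelled 1, E46 cells showed 0 of 36 members called in either direction by limma, against 0.00531% of all genes (1 gene) called higher and 0.00531% (1 gene) called lower, and 3 members had an unadjusted p below 0.05. Without E46 labelled 1 array 2 the calls over all genes were 284 (1.51%), and the members called were still 0. The members' changes lay between -0.24 for Wipi1 and 0.25 for Atp6v1h, with a median of 0.01. Gla read 8.72, 8.98, 8.69 and 8.80, Tfeb 7.93, 8.08, 8.03 and 8.09 and Sqstm1 12.33, 12.23, 12.23 and 12.30, each overlapping the untreated arrays. Their changes were 0.06 ± 0.09, -0.08 ± 0.10 and -0.02 ± 0.06. Arrays labelled 100 set directly against those labelled 1 gave 16 members higher and 6 lower, against 23.6% and 17.8% of all genes. Should the second label hold the true doses, the E46 changes above belong to the lower dose, and the lines are compared at unlike doses. The direction of 100 against 1 then turns. The arrays of the E46 group called 100 here are the same in either case.

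Before any serotonin the lines differed in 18 of the 36 members, 50% called, against 52.2% of genes above the receptor level. Of the 15 pump members 9 were higher in E46 and 0 lower, and of the 11 lysosomal members 0 were higher and 5 lower. Without E46 control array 1 or A2/12 control array 1 or 3, 1 lysosomal member, Neu1, was called higher in E46. Median centring gave 1 higher (Neu1) and 3 lower lysosomal members, Ctsa and Lamp1 being lost, and leaving out the 4 low-quartile arrays also gave 1 and 3, Ctsa and Gla being lost. All 36 gave 10 and 8, against 21.1% and 18.1% of all genes. After median centring the counts over all 36 were 12 and 6. The largest pump difference was Atp6v1g1, at 10.76, 10.79, 10.93 and 10.86 in E46 and 9.83, 9.95, 9.83 and 9.82 in A2/12 (0.98 ± 0.06, adjusted p = 7.73e-12). Atp6v1b2 (0.61 ± 0.07), Atp6ap2 (0.58 ± 0.07), Atp6v1e1 (0.57 ± 0.07) and Atp6v1c1 (0.55 ± 0.08) followed. Atp6v0b, at 0.22 ± 0.07, was not called without E46 control array 4 (adjusted p = 0.0652) or A2/12 control array 4 (adjusted p = 0.0739).

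Ctsl stood at 10.88 ± 0.04 in untreated E46 and 11.77 ± 0.14 in untreated A2/12 (-0.90 ± 0.08, adjusted p = 6.03e-09), and Ctsz at 10.62 ± 0.07 and 11.47 ± 0.05 (-0.85 ± 0.06, adjusted p = 4.35e-10). Gabarapl1, Ulk1 and Tfe3 were lower in E46 too, by 0.83 ± 0.07, 0.57 ± 0.09 and 0.41 ± 0.07. Gla was lower by 0.32 ± 0.09, with overlapping arrays, and lost its call with the 4 low-quartile arrays left out (-0.26, adjusted p = 0.0529). The letters in the array names that give an array's place differ between the lines, so line and place cannot be told apart. Within a line the letters also run nearly with the groups. They were A and B for untreated E46, B and C at labelled 100, and C and D at labelled 1. In A2/12 they were E and F untreated, and F and G with serotonin. No fit took up the letters, so the share of place in the serotonin changes was not tested.

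Further genes of the pathway were taken from lists made by role. Of those named, Arsb, Mitf, Slc38a9, Lamtor1, Atg2b and Wipi2 have 2 probe sets each, and only the brighter one is reported. The shares called in each list are set against those of genes above the receptor level, 53.8% in E46 (28.1% higher and 25.7% lower) and 62.4% in A2/12 (33.9% and 28.5%). The lists themselves were not filtered by level, so dim genes in them make that comparison unlike. Of all genes, 39.6% were called in E46 and 45.9% in A2/12. Of 9 other pump genes 0 rose and 2 fell in E46, Tcirg1 (-0.39 ± 0.07) and Atp6v1g2 (-0.37 ± 0.10), and 2 rose and 0 fell in A2/12, Rnasek (0.32 ± 0.09) and Atp6v0e2 (0.28 ± 0.08), 22.2% called in each line. Of 38 other lysosomal genes 7 rose and 19 fell in E46, and 6 rose and 25 fell in A2/12, with median changes of -0.19 and -0.37. That is 68.4% and 81.6% called, with 50% and 65.8% of the list lower. Npc1, which carries cholesterol out of the lysosome, rose in both lines (0.88 ± 0.06 and 0.78 ± 0.06). Idua, a glycosidase of heparan and dermatan sulfate, rose in E46 (0.80 ± 0.10), and Cln3, a lysosomal membrane protein, in A2/12 (0.65 ± 0.14). Gm2a, the activator that hexosaminidase needs for gangliosides, fell by 0.80 ± 0.08 and 1.52 ± 0.08, and Ids, a sulfatase, by 0.79 ± 0.07 and 1.29 ± 0.07. The largest falls were Ctsh in E46 (-1.08 ± 0.08) and the sulfatase Arsb in A2/12, from 10.23 to 8.13 (-2.10 ± 0.08, adjusted p = 2.39e-14). For Arsb the lines differed by 1.37 ± 0.11 (adjusted p = 1.14e-08).

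Of 23 genes of nutrient signalling at the lysosome 14 rose and 2 fell in E46, and 9 rose and 2 fell in A2/12, with median changes of 0.27 and 0.17, and with 69.6% called in E46 and 47.8% in A2/12. Sesn2, which restrains the kinase mTORC1 when leucine is scarce, rose most in both lines, from 7.36 to 9.51 in E46 (2.15 ± 0.11, adjusted p = 5.91e-12) and from 7.70 to 9.35 in A2/12 (1.65 ± 0.11, adjusted p = 7.41e-11). The Rag GTPases, which dock mTORC1 at the lysosome, included Rragd (1.28 ± 0.12 in E46 and 0.53 ± 0.12 in A2/12) and Rragb (0.74 ± 0.12 and 1.15 ± 0.12). Slc38a9, the arginine sensor of the lysosomal membrane, rose by 0.93 ± 0.10 in A2/12. Mitf, a relative of Tfeb, fell by 1.70 ± 0.08 in A2/12 (adjusted p = 4.34e-13) and stood at 0.16 ± 0.08 in E46, and the lines differed by 1.87 ± 0.11 (adjusted p = 2.91e-10). Lamtor4 and Lamtor1, of the Ragulator complex, fell in E46 (-0.51 ± 0.08 and -0.36 ± 0.08), and Tsc2 in A2/12 (-0.35 ± 0.06).

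Of 39 other autophagy genes 16 rose and 2 fell in E46, and 14 rose and 9 fell in A2/12, with median changes of 0.16 and 0.15, and with 46.2% and 59% called. In E46 the largest rises were Epg5, a tether for fusion with lysosomes (1.12 ± 0.12), Atg2b, a lipid transfer protein (0.81 ± 0.10), and Atg14, of the lipid kinase complex (0.77 ± 0.12). In A2/12 they were the protease Atg4c (1.36 ± 0.13), Atg16l1, which places the Atg12 and Atg5 conjugate on the membrane (0.94 ± 0.11), and Wipi2 (0.61 ± 0.06), a relative of Wipi1, which fell there. Fundc1, a receptor for mitochondria, fell by 0.49 ± 0.09 in E46 and 1.29 ± 0.09 in A2/12. Vamp8 fell in E46 (-0.80 ± 0.15), and Atg10 (-1.21 ± 0.09) and Ulk2 (-0.93 ± 0.08) in A2/12. At serotonin labelled 1, 0 genes of these 4 lists were called by limma, with 1, 8, 4 and 6 at an unadjusted p below 0.05 among the pump, lysosomal, signalling and autophagy genes.

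**Figure D4:**
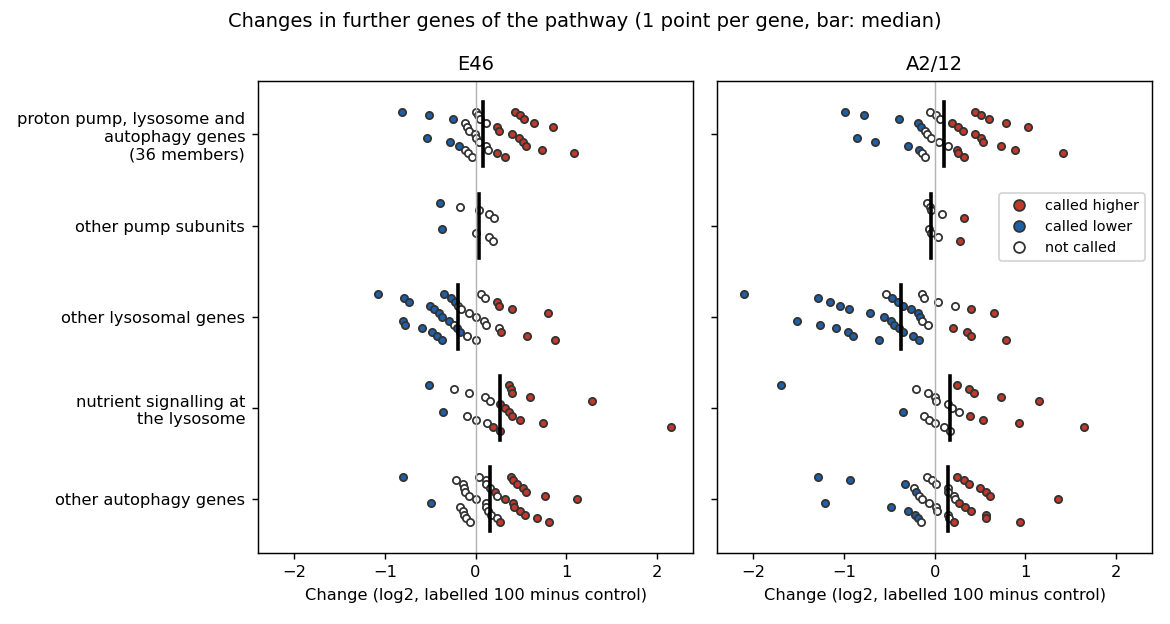
Change with serotonin labelled 100 in E46 (left) and A2/12 (right), log2, 1 point per gene, for the 36 members and 4 lists of further genes of the pathway, with each list's median as a bar; red and blue points were called higher or lower at an adjusted p below 0.05. The 38 other lysosomal genes lie mostly under 0 in both lines, with medians of -0.19 and -0.37, and the 23 nutrient signalling genes mostly above it, with 0.27 and 0.17.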

How the data were processed

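RNA of 20 cultured cell samples was measured on 20 Affymetrix arrays. The authors deposited log2 values per probe set, which the submitters' processing notes credit to RMA (a method of background correction, quantile normalization and probe summary; version not given in the sources used here). Intensities before this step were not used here, so its effect could not be examined. Of 35556 probe sets 21218 had 1 gene symbol, 1881 several and 12457 none. Symbols were updated by Entrez number for 21185, and probe sets with several symbols were left out. Of the genes, 1386 had more than 1 probe set, and the one with the highest mean was used.

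A mean per group was fitted over all 20 arrays (15 residual degrees of freedom) with limma 3.58.1 in R 4.3.3, with empirical Bayes moderation and Benjamini-Hochberg adjustment over 18820 genes. The code was tested on simulated data. Groups came from sample titles. Full values are given for up to 3 called members with the largest changes in each role and the 8 with the clearest difference between lines, and for other lists up to 3 called genes per direction and line. Further members are named without that rule. Promoters are shown for up to 6 members called alike in both lines that hold a motif. Members and lists were chosen with earlier results of these data known. Replicate numbers gave no sign of pairing (correlation of same-numbered deviations from -0.55 to 0.41, median -0.01, 40 pairs). Pairs with other numbers gave -0.55 to 0.60 (median -0.01, 120 pairs). With 4 arrays a group this check cannot exclude a pairing. No 2 arrays held identical values, and the correlation between any 2 arrays was 0.927 to 0.995. Alternatives covered scaling, probe sets, blocks, weights, arrays left out and the other dose label. Promoters came from RefSeq (GRCm38.p6).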

Additional observations from a re-analysis of the deposited data

Results flagged for a closer look

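In 14 of 180 checks of 4 arrays, 1 array's log2 level stood far from the other 3, where chance alone gives about 1 in 20. They were Atp6v1a in untreated E46 array 1 at 10.84 (others 10.99 to 11.01), Atp6v1d in E46 with serotonin labelled 1 array 4 at 10.71 (others 10.83 to 10.85), Atp6v1e1 in A2/12 with serotonin labelled 100 array 3 at 9.95 (others 10.14 to 10.18), Atp6v1g1 in untreated A2/12 array 2 at 9.95 (others 9.82 to 9.83) and Atp6v1h in untreated E46 array 1 at 8.40 (others 8.81 to 8.89). Others were Atp6ap2 in A2/12 with serotonin labelled 100 array 3 at 10.24 (others 10.42 to 10.44), Lamp1 in E46 with serotonin labelled 100 array 1 at 12.43 (others 12.31 to 12.32), Lamp1 in untreated A2/12 array 2 at 12.58 (others 12.53 to 12.54), Lamp2 in untreated E46 array 1 at 11.96 (others 12.23 to 12.25) and Lamp2 in untreated A2/12 array 1 at 12.21 (others 12.32 to 12.34). The rest were Ctsa in A2/12 with serotonin labelled 100 array 1 at 12.34 (others 12.35), Ctsd in untreated A2/12 array 3 at 12.00 (others 11.95 to 11.96), Gla in untreated A2/12 array 1 at 8.78 (others 9.12 to 9.16) and Tfeb in E46 with serotonin labelled 100 array 2 at 7.07 (others 7.35 to 7.39). E46 control array 1, A2/12 control arrays 1 and 2 and A2/12 serotonin array 3 appear more than once.

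The response at serotonin labelled 100 differed between the lines by the interaction term in limma for 13 members. The difference, E46 minus A2/12 on the log2 scale, was Gabarapl1 at 0.99 (adjusted p = 2.59e-07), Atp6v0a1 at 0.61 (adjusted p = 1.12e-05), Atp6v0e at -0.61 (adjusted p = 4.99e-05), Hexa at 0.58 (adjusted p = 5.89e-05), Atp6v1c1 at -0.47 (adjusted p = 0.00438), Atp6v1g1 at -0.30 (adjusted p = 0.00831) and Neu1 at -0.45 (adjusted p = 0.00903). It was also called for Atp6v0b at -0.33 (adjusted p = 0.0156), Atp6v1a at 0.38 (adjusted p = 0.0174), Lamp2 at 0.29 (adjusted p = 0.0309), Atp6v1b2 at -0.30 (adjusted p = 0.0345), Atp6ap2 at 0.30 (adjusted p = 0.0367) and Atg5 at -0.40 (adjusted p = 0.0401).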

How the results depend on the processing

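The numbers of members called higher and lower kept within 1.5 times the values of the report in most alternatives, with these exceptions. With the doses of the second label, E46 had 0 and 0 at 100, 15 and 6 at 1, 6 and 16 for 100 against 1, and 13 lower in the difference of the lines. Under those doses the E46 changes at 100 turned for Atp6v1b2 (-0.04), Atp6v0b (-0.01), Atp6v0e (0.08), Mcoln1 (-0.16), Tfe3 (-0.12), Ulk1 (-0.13), Atg7 (-0.06) and Sqstm1 (-0.02), and the difference of the lines for Atp6v0e (0.02); the arrays are exchanged by construction. Fits at position 5, 7 or 9 alone, with fewer arrays, gave 4 and 1, 6 and 2, and 0 and 0 in E46 at 100; 7 and 4, 11 and 4, and 1 and 1 in A2/12; 1 and 0, 8 and 2, and 1 and 0 for 100 against 1; 0 and 0, 2 and 0, and 0 and 0 for the difference; and 5 and 4, 4 and 3, and 1 and 0 between the lines. Asking for a fold above 1.2 gave 8 and 3, 9 and 4, 7 and 2, 3 and 1, and 5 and 4 in that order. Median centring left 3 lower in E46 and 5 in A2/12, and turned Atp6ap1 in A2/12 to 0.01. Without E46 control array 3 and A2/12 control array 4, 3 were higher in the difference. The replicate block gave 15 and 6 in E46 and 17 and 9 in A2/12, and ended the difference of Atg5 (-0.40, adjusted p = 0.0554 by limma) and the change of Ctsd at 100 against 1 (-0.15, 0.0542). With 4 arrays a group, the median 95% half-width of a change over all genes was 0.209, which limits what small changes can show.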
